A study of Mus musculus with 11 samples.

Results

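The genes described here are 40 mouse genes of mitotic entry, spindle, kinetochore and condensin, a set given by name for their roles in cell division and looked up by symbol among the 42375 named genes of a count table. The set was chosen with earlier results of these data known. All 40 genes were found, and all 40 passed the filter on low counts that left 15024 genes for testing. They were followed over 11 RNA sequencing libraries of macrophages grown from the bone marrow of C57BL/6 mice and labelled M0 or M1. Gapmers, antisense oligonucleotides that make RNase H cut the RNA they bind, had been applied for 16 hours, one of them labelled NS and the other directed at MERRICAL, a long noncoding RNA. The 4 groups were M0 NS (3 libraries), M0 KD (3), M1 NS (3) and M1 KD (2), where KD is the gapmer against MERRICAL. The labels name no stimulus for M1, no age and no number of animals. MERRICAL could not be matched to a named gene of the table, and the knockdown itself was not checked.

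Before division a cell copies its DNA and then enters mitosis when cyclins A and B activate the kinase Cdk1. Condensin and topoisomerase II compact the chromosomes, kinetochores on the centromeres attach them to the spindle, and the spindle checkpoint holds back the ubiquitin ligase that starts anaphase until attachment is complete. Most of these genes are transcribed as cells pass from late S phase into mitosis, so their messages are abundant in dividing cell populations and scarce in resting ones. Macrophages grown from bone marrow proliferate under macrophage colony-stimulating factor, and stimuli that activate macrophages are known to slow that growth. In bulk libraries, a lower share of dividing cells and less message per dividing cell cannot be told apart.

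Total counts ran from 30040632 to 43250392 per library, and levels are given as CPM, counts relative to the TMM-adjusted total of the library. The summed level of 10 macrophage markers, among them Csf1r, Emr1 and Lyz2, was between 14000 and 27300 CPM in every library. Lyz2 was the largest of the 10 in every library. The sums of erythroid, lymphoid, mast cell and stromal markers were at most 41.51 CPM. A list of 17 neutrophil and precursor markers, Mpo and Elane included, summed to between 1350 and 2372 CPM in the libraries of M0 NS, 753.8 and 777.6 in those of M0 KD, 247.8 and 323.8 in M1 NS, and 213.9 and 230.2 in M1 KD. No 2 libraries were alike to within counting noise. M0 NS library 4 had the highest level of its group in 38 of the 40 mitotic genes and M0 KD library 4 in 35, whereas in the M1 groups no library led in more than 23.

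The promoters of the set are shown first because they carry 2 short motifs known from mitotic genes, the cell cycle genes homology region (CHR, searched as TTTGAA or TTCGAA) and CCAAT, the core of the NF-Y site. RefSeq promoters on GRCm38.p6, from 250 bases before to 50 bases after each start, were found for 35 of the 40 genes as 37 sequences. Both strands were searched, and the CHR and CCAAT letters were counted separately. Some 83.8% of the set's promoters held a CHR match, against 19.2% of all 32851 promoters of that length. CCAAT was in 75.7% of them, against 37.4% of all promoters, and both motifs were in 70.3%, against 7.52%. These are matches of letters, not measured sites. The 150 bases before the start are printed for 6 genes whose levels are described below, 5′ to 3′ on the gene's strand, with every CHR and CCAAT match on either strand in capitals (ATTGG is CCAAT, and TTCAAA is TTTGAA, read from the other strand).
Cdc20, chr4:118437344-118437493, minus strand: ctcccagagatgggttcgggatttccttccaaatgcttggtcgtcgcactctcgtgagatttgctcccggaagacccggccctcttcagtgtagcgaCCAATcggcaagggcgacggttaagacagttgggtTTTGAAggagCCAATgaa
Cdk1, chr10:69352913-69353062, minus strand: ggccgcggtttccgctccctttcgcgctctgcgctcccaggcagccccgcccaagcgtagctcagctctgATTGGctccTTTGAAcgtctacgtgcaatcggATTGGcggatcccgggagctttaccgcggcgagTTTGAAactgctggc
Top2a, chr11:99024190-99024339, minus strand: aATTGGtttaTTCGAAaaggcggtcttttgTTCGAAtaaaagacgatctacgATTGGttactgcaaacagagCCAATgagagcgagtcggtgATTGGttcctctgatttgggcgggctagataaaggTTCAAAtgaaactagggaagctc
Kif11, chr19:37376232-37376381, plus strand: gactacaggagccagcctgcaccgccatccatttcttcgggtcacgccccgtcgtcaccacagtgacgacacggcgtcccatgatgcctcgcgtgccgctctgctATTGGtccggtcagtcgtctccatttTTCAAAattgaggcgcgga
Cenpa, chr5:30666736-30666885, plus strand: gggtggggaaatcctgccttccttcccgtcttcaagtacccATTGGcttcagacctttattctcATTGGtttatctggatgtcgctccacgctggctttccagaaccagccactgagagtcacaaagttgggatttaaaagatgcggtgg
Spc25, chr2:69206214-69206363, minus strand: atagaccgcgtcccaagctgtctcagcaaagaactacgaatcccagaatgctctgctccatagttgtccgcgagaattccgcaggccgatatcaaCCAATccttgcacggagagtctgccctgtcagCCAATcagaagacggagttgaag

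In Cdc20 the CHR began 18 bases before the start, with a CCAAT 53 bases before the start and another 8 bases before it. Kif11 had a CHR 19 bases before the start on the other strand and 1 CCAAT at 45. Top2a held 4 CHR matches and 6 CCAAT matches before its start, not all of them within the printed stretch. In Cenpa and Spc25 the printed stretch holds CCAAT alone, since their CHR matches lay 16 and 24 bases after the start. Cdk1 held a CHR on either side of a CCAAT match, 71 and 15 bases before the start.

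**Figure D1:**
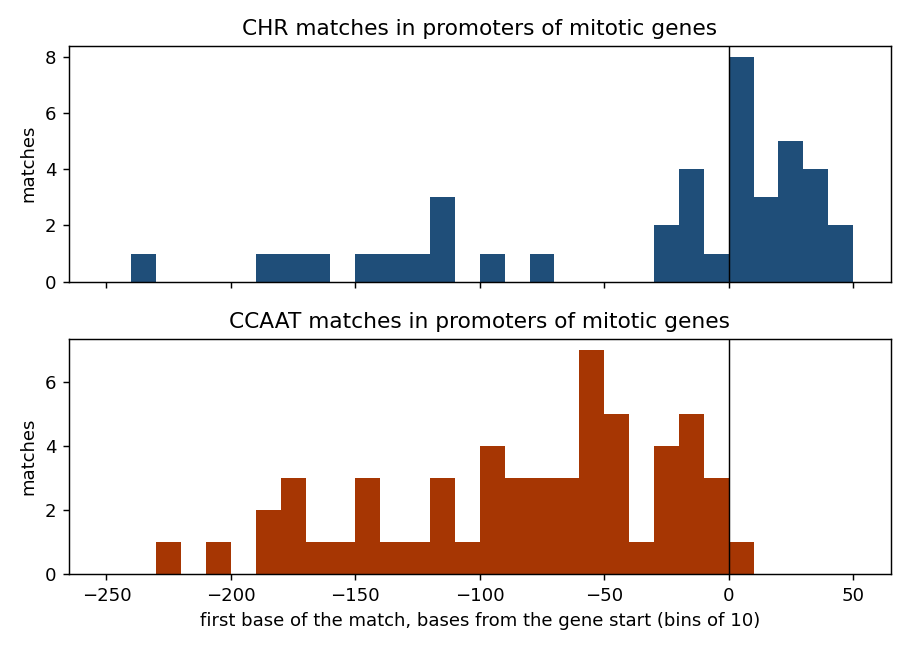
Position of motif matches in the promoters of the mitotic genes, 1 promoter a gene, in bins of 10 bases from the gene start at 0 (negative values lie before it). CHR matches (upper histogram) gather around and after the start, and CCAAT matches (lower histogram) lie almost entirely before it.

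Across the 4 groups the set was highest in M0 KD and lowest in M1 NS. The summed level of the 40 genes was 528, 498 and 672 CPM in M0 NS libraries 1, 2 and 4, and 835, 927 and 1019.8 CPM in M0 KD libraries 1, 2 and 4. It was 193, 158 and 158 CPM in M1 NS libraries 1, 2 and 4 and 324 and 302 CPM in M1 KD libraries 5 and 6. The 4 groups did not overlap in this sum. Tpx2 alone made up 63.3, 55.8 and 23.3 CPM of it in the M1 NS libraries and 138 and 121 CPM in the M1 KD libraries. The difference between the M1 sums is therefore in large part that of 1 gene. For 38 genes the highest group mean was that of M0 KD, the exceptions being Spc25 and Tpx2, both highest in M1 KD. The lowest group mean was in M1 NS for 29 genes and in M1 KD for 10. In M1 NS 17 of the 40 genes had a mean under 1 CPM, and 10 had no more than 10 reads in at least 1 library of that group, so low M1 levels rest on few reads. The lowest M0 count of any of them was 75 reads.

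**Figure D2:**
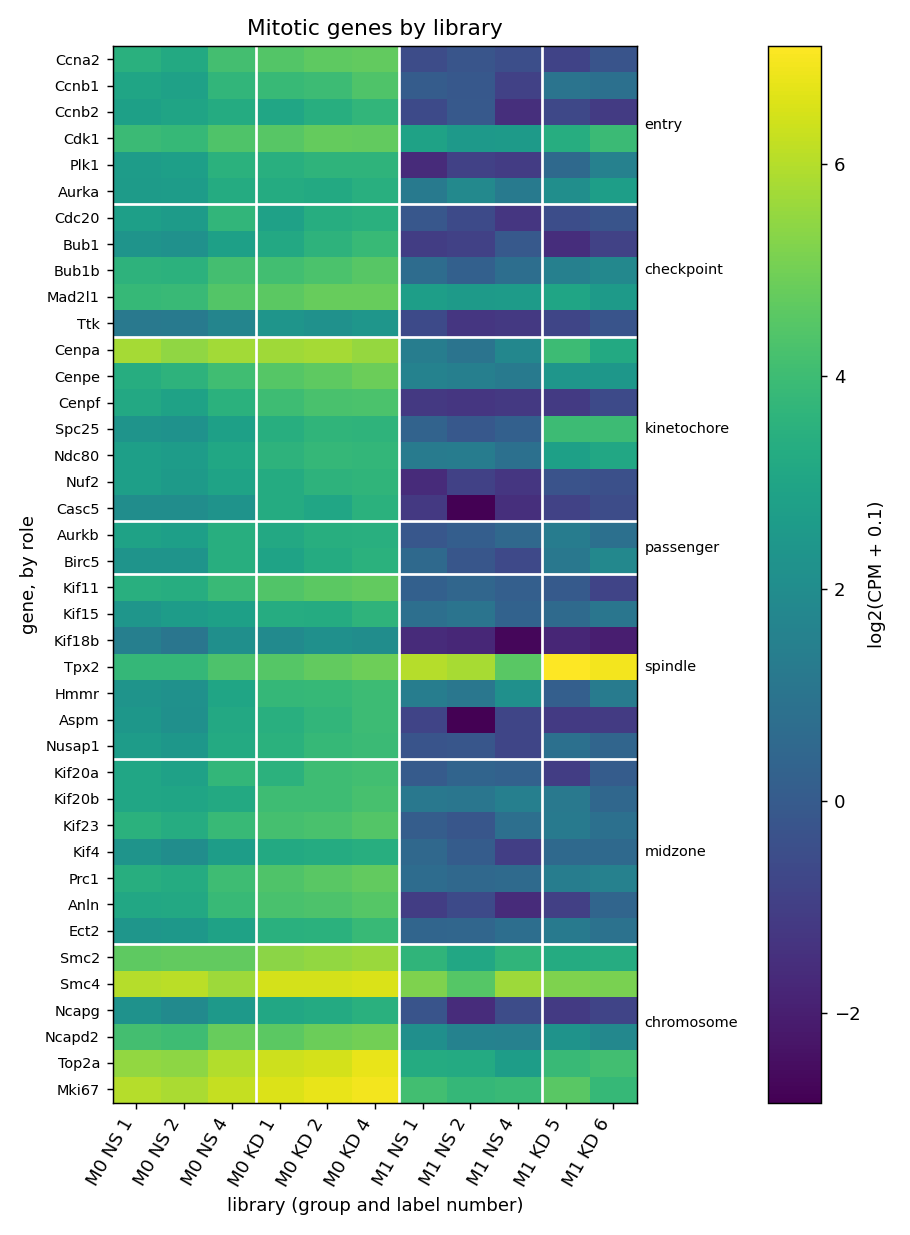
Level of each of the 40 genes (rows, by role) in each of the 11 libraries (columns), as log2(CPM + 0.1), with white lines between groups and roles. The M0 columns are brighter than the M1 columns in nearly every row, with Tpx2 brightest and Spc25 bright in M1 KD.

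To compare genes with each other, levels were divided by the length of the gene's merged exons. In M0 NS the condensin subunit gene Smc4 was highest, at 11.6 CPM per kb, followed by Cenpa at 8.59, the proliferation marker Mki67 at 6.54 and the topoisomerase gene Top2a at 5.55 CPM per kb. In M1 NS the order began with Tpx2 at 10.2 CPM per kb and Smc4 at 6.97. In M1 KD it began with Tpx2 at 27.7, Smc4 at 6.803 and Spc25 at 4.89 CPM per kb. Spc25 ranked 20 of 40 in M0 NS and 3 of 40 in M1 KD.

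M1 cells were compared with M0 cells under the NS gapmer to see how the set differed between the states. By edgeR's quasi-likelihood test over all 11 libraries, with Benjamini-Hochberg adjustment over all 15024 genes, 39 of the 40 genes were lower in M1 NS and 1, Tpx2, was higher. Over all genes tested, 28.6% were lower and 26.9% higher. The median log2 fold change of the set was -3.02, against -0.04 for all genes. No gene of the set had overlapping libraries between the groups. All M1 NS libraries were lower for 39 and higher for 1, where 32.8% of all genes were lower and 28.6% higher in that way. With library size as the only scaling the median of all genes was -0.42 and that of the set -3.40, and the called genes of the whole table split into 2348 higher and 6447 lower in place of 4044 and 4294; the split in the set stayed 1 and 39.

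Of the 6 genes of mitotic entry all were lower in M1 NS. Ccna2, the cyclin A2 gene, was at 10.9, 9.16 and 17.5 CPM in M0 NS and 0.588, 0.752 and 0.631 CPM in M1 NS. No M1 library came near the M0 libraries, and the log2 fold change was -4.26 ± 0.28 (SE, adjusted p = 1.36e-07). Ccnb1, a cyclin B gene, went from 9.304 ± 3.16 (SD, n = 3) to 0.738 ± 0.273 (SD, n = 3) CPM (log2 fold change -3.66 with an SE of 0.32, adjusted p = 1.51e-06). Plk1, the Polo-like kinase of mitotic entry and spindle assembly, was at 6.17, 6.68 and 11.2 CPM in M0 NS and 0.224, 0.436 and 0.373 CPM in M1 NS (log2 fold change -4.56 with an SE of 0.37, adjusted p = 7.63e-07). The difference in Cdk1 was smaller. It was at 15.2, 14.2 and 20.3 CPM in M0 NS and 7.396, 5.74 and 5.93 CPM in M1 NS, still without overlap (log2 fold change -1.38 with an SE of 0.19, adjusted p = 6.32e-05). Aurka, the kinase of centrosome maturation, had a log2 fold change of -1.45. Ccnb2, the other cyclin B gene of the set, was lower at -3.87.

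The checkpoint genes were all 5 lower. Cdc20, the activator of the anaphase promoting complex that the checkpoint restrains, was at 6.77, 5.98 and 12.8 CPM in M0 NS, with library 4 well above the others, and 0.812, 0.554 and 0.315 CPM in M1 NS (log2 fold change -3.92 with an SE of 0.39, adjusted p = 3.97e-06). Bub1b, which encodes the checkpoint kinase-like protein BubR1, went from 13.7 ± 3.16 (SD, n = 3) to 1.39 ± 0.281 (SD, n = 3) CPM (log2 fold change -3.29 with an SE of 0.23, adjusted p = 2.17e-07). The log2 fold changes of the checkpoint kinase genes Bub1 and Ttk were -3.25 and -2.596. Mad2l1, the Cdc20 inhibitor, had the smallest difference of these genes, from 16.8 ± 4.12 (SD, n = 3) to 6.21 ± 0.334 (SD, n = 3) CPM (log2 fold change -1.44 with an SE of 0.18, adjusted p = 3.03e-05).

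Among the 7 centromere and kinetochore genes, all lower, were some of the largest differences of the set. Cenpf, a large protein of the outer kinetochore, was at 8.96, 7.32 and 11.2 CPM in M0 NS and 0.336, 0.317 and 0.344 CPM in M1 NS. The M1 NS libraries lay close together and far below M0 NS, and the log2 fold change was -4.77 ± 0.25 (SE, adjusted p = 2.14e-08). Cenpa, the histone H3 variant that marks the centromere, was at 54.6, 44.1 and 52.4 CPM in M0 NS and 2.47, 1.86 and 3.27 CPM in M1 NS (log2 fold change -4.298 with an SE of 0.24, adjusted p = 4.39e-08). Of the Ndc80 complex, which binds microtubules at the kinetochore, Nuf2 had a log2 fold change of -4.39, Spc25 of -2.43 and Ndc80 of -1.73. Casc5, the scaffold Knl1 of the outer kinetochore, was lower at -4.21, with as few as 1 read in an M1 NS library. Cenpe, the kinetochore motor, was lower at -2.32.

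Both chromosomal passenger genes were lower, Aurkb, the kinase that corrects attachments, at a log2 fold change of -2.95 and Birc5, its partner survivin, at -2.88. Of the 7 spindle genes 6 were lower and Tpx2 was higher. Kif11, the motor that pushes spindle poles apart, was at 10.8, 10.3 and 14.8 CPM in M0 NS and 1.06, 1.27 and 1.03 CPM in M1 NS (log2 fold change -3.42 with an SE of 0.23, adjusted p = 1.56e-07). Hmmr, a spindle-associated protein, was at 4.87, 4.51 and 7.92 CPM in M0 NS and 2.49, 2.06 and 4.301 CPM in M1 NS. Its ranges came close, with the highest M1 NS library just below the lowest M0 NS library, and the log2 fold change was -0.96 ± 0.33 (SE, adjusted p = 0.0265). That call was lost without M0 NS library 4 (log2 fold change -0.66, adjusted p = 0.127), without M1 NS library 1 (adjusted p = 0.0935) and without M1 NS library 2 (adjusted p = 0.0944). The other spindle genes were further apart, with log2 fold changes of -4.204 for the microtubule-shortening motor Kif18b, -4.103 for the spindle pole gene Aspm, -3.38 for Nusap1 and -1.98 for the motor Kif15.

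Tpx2, the protein that activates Aurora A on spindle microtubules, went the other way. It was at 13.8, 13.8 and 19.9 CPM in M0 NS and 63.3, 55.8 and 23.3 CPM in M1 NS. Every M1 NS library was above every M0 NS library, although M1 NS library 4 was only slightly above the highest of them, and the log2 fold change was 1.58 ± 0.30 (SE, adjusted p = 0.00068). Aurka, the kinase that Tpx2 binds, was lower in the same libraries, at 2.33, 3.48 and 2.32 CPM in M1 NS against 6.12, 6.28 and 9.73 in M0 NS.

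All 7 genes of the midzone and cytokinesis were lower. Anln, the anillin of the contractile ring, had the largest difference of the whole set, with a log2 fold change of -4.79 ± 0.38 (SE). Prc1, which bundles midzone microtubules, was at 10.5, 9.67 and 16.1 CPM in M0 NS and 1.48, 1.35 and 1.43 CPM in M1 NS, 3 nearly equal libraries (log2 fold change -3.08 with an SE of 0.22, adjusted p = 2.44e-07). The motors Kif23 and Kif20a were lower at -3.37 and -3.17, Kif4 and Kif20b at -2.51 and -1.902, and Ect2, the exchange factor that starts furrowing, at -2.12. Of the chromosome genes, Top2a was at 45.3, 42.4 and 62.4 CPM in M0 NS and 9.72, 9.26 and 6.42 CPM in M1 NS (log2 fold change -2.56 with an SE of 0.20, adjusted p = 5.52e-07). Mki67, which coats mitotic chromosomes, was at 64.7, 58.1 and 74.5 CPM in M0 NS and 16.9, 13.5 and 14.97 CPM in M1 NS (log2 fold change -2.12 with an SE of 0.19, adjusted p = 1.47e-06). Of these chromosome genes the shared condensin core genes Smc2 and Smc4 differed least, at -1.18 and -0.73, while Ncapg and Ncapd2, subunits of condensin I alone, were lower at -3.11 and -2.62.

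Markers of other cells moved with this comparison. Of the 17 neutrophil and precursor markers 16 were lower in M1 NS by edgeR, with Elane at 0 in 2 of the 3 libraries, and of 8 stem and progenitor markers 5 were lower, their sum at 4.874 to 7.839 CPM in M1 NS and 20.76 to 28.44 CPM in M0 NS. The macrophage markers summed to 14000 to 16240 CPM in M1 NS and 26020 to 27300 CPM in M0 NS, with 5 of 10 called higher and 3 lower. Lyz2, the largest part of that sum, was at 5186 to 6429 CPM in M1 NS and 16300 to 18740 CPM in M0 NS. The part of all these markers in the result was not tested.

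**Figure D3:**
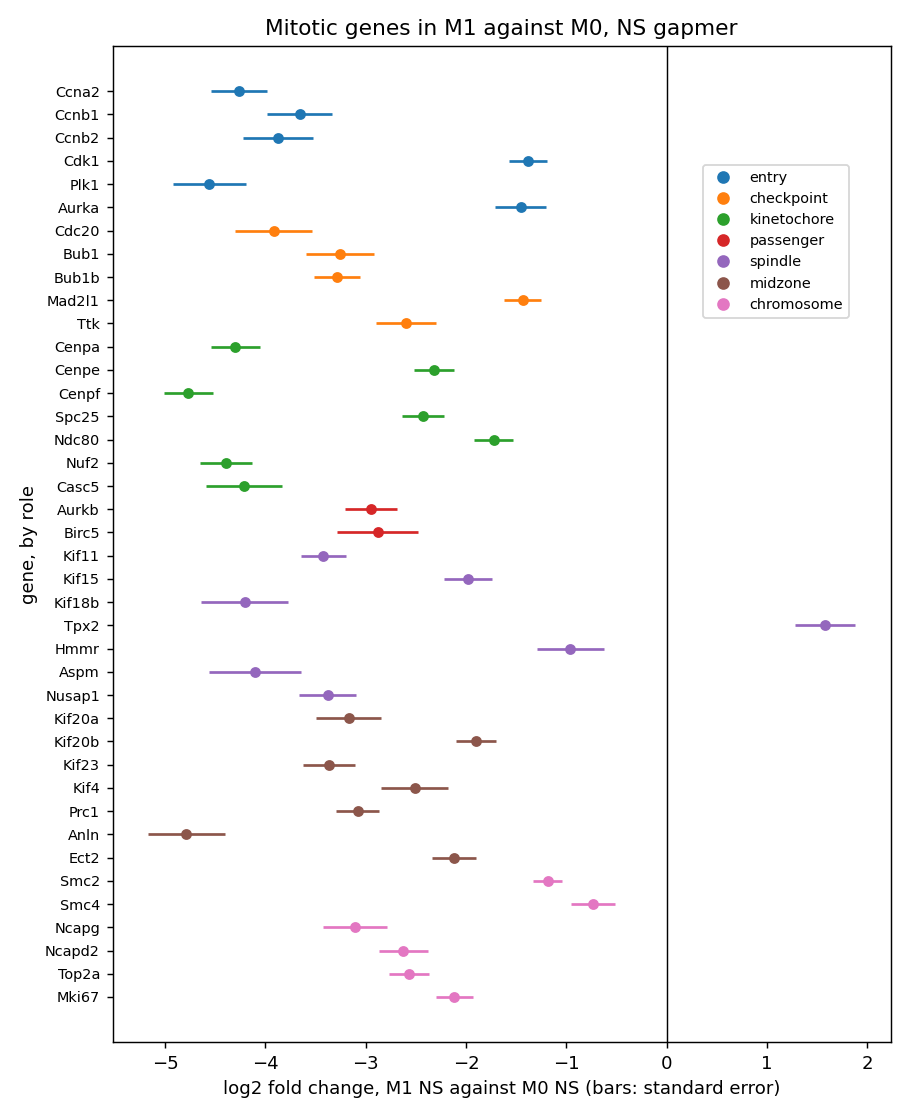
Log2 fold change of each gene in M1 NS against M0 NS (points, coloured by role) with its standard error (bars), from edgeR. All points but Tpx2 (1.58) lie left of 0, from -0.73 for Smc4 to -4.79 for Anln.

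The gapmer against MERRICAL was then compared with the NS gapmer in M0 cells. No gene of the table passed the edgeR test over all 11 libraries (0 of 15024, 0% called), and so none of the 40 did, while 1947 genes (13%) had an unadjusted p under 0.05. All 40 log2 fold changes were above 0, against 50.4% of all genes, with a median of 0.83 for the set and 0.00 for all genes. At an unadjusted p under 0.05, 31 of the 40 were higher and none was lower, against 5.95% of all genes higher. For 29 of the 40 genes every M0 KD library was above every M0 NS library, against 17.2% of all genes. The M0 NS libraries used here are also the controls of the state comparison above.

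The number called in M0 depended on the test and on the libraries in the fit. When the 6 M0 libraries were fitted alone, 27 of the 40 genes were called higher and none lower, against 3.98% of all genes higher and 4.08% lower. That count was 37 without M0 NS library 4 (12.2% of all genes called), 12 without M0 KD library 4 (2.88%) and 0 without each of the other 4 libraries, alternatives chosen after seeing the data. DESeq2 called 19 of the 40 higher and none lower, against 0.681% and 0.573% of all genes, and limma-voom called none. Without a filter on low counts edgeR called 25 higher, against 0.707% of all genes.

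Cenpe was at 10.2, 11.9 and 16.5 CPM in M0 NS and 22.2, 24.8 and 29.1 CPM in M0 KD. All 3 M0 KD libraries were above the highest M0 NS library, with a log2 fold change of 0.98 ± 0.18 (SE) and an adjusted p of 0.19, the lowest of the set. The same adjusted p was reached by Cenpf, whose M0 KD libraries were at 15.9, 19.1 and 19.4 CPM (log2 fold change 0.98). It was shared by Spc25, Kif11, Kif20b, Ect2 and Smc2, whose log2 fold changes were 1.08, 0.99, 1.004, 1.04 and 0.81. The largest values belonged to Hmmr, at 4.87, 4.51 and 7.92 CPM in M0 NS and 13.5, 13.9 and 15.7 CPM in M0 KD (log2 fold change 1.32 with an SE of 0.32, adjusted p = 0.224), and to Casc5 (log2 fold change 1.203 with an SE of 0.28, adjusted p = 0.222). In both genes the M0 KD libraries stood clear of M0 NS.

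By role, the median log2 fold change in M0 was 0.98 for the kinetochore genes and for the spindle genes, 0.95 for midzone and cytokinesis and 0.76 for the chromosome genes. It was 0.65 for the checkpoint genes, 0.58 for mitotic entry and 0.40 for the passenger genes. Top2a was at 81.7, 89.2 and 108 CPM and Mki67 at 94.7, 108 and 121 CPM in M0 KD, each above all their M0 NS libraries (log2 fold change 0.90 with an SE of 0.19, adjusted p = 0.222, and log2 fold change 0.72 with an SE of 0.18, adjusted p = 0.224). Cdk1 had a log2 fold change of 0.61 and Ccna2 of 0.96, neither of which passed the adjusted test. Cenpa was at 51.7, 53.9 and 45.7 CPM in M0 KD, within the span of M0 NS, and its log2 fold change was 0.00 ± 0.20 (SE). Cdc20 overlapped too, at 7.12, 10.1 and 10.9 CPM in M0 KD, because M0 NS library 4 was above all of them (log2 fold change 0.14; sign negative without M0 NS library 1 or 2, -0.06 at the lowest).

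Beside these values, all 17 neutrophil and precursor markers had a log2 fold change below 0 in M0 KD against M0 NS, with a median of -1.25. The macrophage markers summed to between 19570 and 21360 CPM in M0 KD and between 26020 and 27300 CPM in M0 NS. Lyz2, the largest part of that sum, was at 12010 to 13800 CPM in M0 KD and 16300 to 18740 CPM in M0 NS. The sum of 8 stem and progenitor markers, Kit and Cd34 among them, was 20.78 to 27.08 CPM in M0 KD and 20.76 to 28.44 in M0 NS. Whether these differences in markers bear on the mitotic genes was not tested.

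In M1 cells the gapmer against MERRICAL was compared with the NS gapmer in the same way, with the M1 NS libraries of the state comparison as controls. The M1 KD libraries carry the numbers 5 and 6, and those of M1 NS the numbers 1, 2 and 4. Library number and gapmer cannot be told apart here. By edgeR 16 of the 40 genes were higher in M1 KD and none was lower, where 17.6% of all genes were higher and 19.2% lower. The median log2 fold change was 0.60, against 0.00 for all genes. Both M1 KD libraries were above all M1 NS libraries for 21 of the 40 genes (26.1% of all genes) and below them for 1, Kif11 (26.3% of all genes). With limma-voom 10 of the 40 were called higher (17.2% of all genes), and with the 5 M1 libraries fitted alone 10 of the 39 that then passed the filter (11.5%). Ccnb1, Aurkb, Nuf2, Prc1 and Nusap1 lost their calls under both settings. Birc5 lost its call under limma-voom but not with the M1 libraries alone, and Aurka the reverse. Upper-quartile scaling moved the median of all genes to 0.15, split the whole table's calls into 3454 higher and 2177 lower in place of 2645 and 2890, and called 19 of the set higher (23% of all genes).

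The largest difference was that of Spc25, a subunit of the Ndc80 complex. It was at 1.15, 0.831 and 1.06 CPM in M1 NS and 15.59 and 15.58 CPM in M1 KD. The M1 KD libraries were nearly equal and lay far above every M1 NS library, and the log2 fold change was 3.93 ± 0.23 (SE, adjusted p = 1.91e-06). They were also above every M0 NS library (4.89, 4.65 and 6.996 CPM) and every M0 KD library (10.3, 12.5 and 12.2 CPM). Spc25 stayed called under all 20 alternatives of this comparison.

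Other kinetochore genes were higher as well, 5 of the 7 in all. Cenpa was at 2.47, 1.86 and 3.27 CPM in M1 NS and 15.6 and 8.996 CPM in M1 KD, both M1 KD libraries above all of M1 NS but unequal (log2 fold change 2.27 with an SE of 0.25, adjusted p = 5.24e-05). Ndc80 was at 2.38, 2.45 and 1.69 CPM in M1 NS and 7.02 and 8.67 in M1 KD (log2 fold change 1.85 with an SE of 0.21, adjusted p = 6.55e-05), close to its M0 NS libraries. Nuf2, another subunit of the same complex, differed by 1.11 from very low counts of 8, 11 and 11 in M1 NS to 26 and 18 in M1 KD, and lost its call without M1 KD library 5 (adjusted p = 0.095) or M1 NS library 1 (adjusted p = 0.0635). Cenpe was higher by 1.02. Not called were Casc5, with a log2 fold change of 1.16 (adjusted p = 0.0733; 0.0412 without M1 NS library 1), and Cenpf, with 0.41 (adjusted p = 0.414); Cenpf remained at 0.357 and 0.549 CPM.

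Of the mitotic entry genes 4 of 6 were higher. Plk1 was at 1.37 and 2.82 CPM in M1 KD, above all its M1 NS libraries (log2 fold change 2.61 with an SE of 0.40, adjusted p = 0.000493). Its log2 fold change was 2.01 without M1 KD library 6. The Plk1 counts were very low in M1 NS, at 8, 11 and 13 reads, against 50 and 77 reads in M1 KD. Cdk1 was at 10.1 and 15.2 CPM in M1 KD (log2 fold change 0.99 with an SE of 0.21, adjusted p = 0.00343), with an adjusted p of 0.0502 without M1 KD library 6. Aurka, higher by 0.99, lost its call without M1 KD library 6 (adjusted p = 0.166) or M1 NS library 1 (adjusted p = 0.0559). Ccnb1, higher by 1.27, lost it without M1 KD library 5 (adjusted p = 0.0972). The cyclin genes Ccna2 and Ccnb2 had log2 fold changes of -0.15 and -0.28, and their M1 KD and M1 NS libraries overlapped, Ccna2 at 0.467 and 0.731 CPM in M1 KD. The plot of 9 genes shows Plk1 and Ccna2 side by side.

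Tpx2, already above its M0 level in M1 NS, was higher again in M1 KD, at 138 and 121 CPM against 63.3, 55.8 and 23.3 CPM in M1 NS. Both M1 KD libraries were far above the highest M1 NS library (log2 fold change 1.45 with an SE of 0.32, adjusted p = 0.00414). Both passenger genes were called, Birc5 from 0.903 ± 0.425 (SD, n = 3) to 2.74 ± 0.9302 (SD, n = 2) CPM (log2 fold change 1.58 with an SE of 0.44, adjusted p = 0.015) and Aurkb from 1.05 ± 0.273 (SD, n = 3) to 2.05 ± 0.518 (SD, n = 2) CPM (log2 fold change 0.97 with an SE of 0.29, adjusted p = 0.0205). Birc5 lost the call without M1 KD library 6 (adjusted p = 0.12), and Aurkb without M1 KD library 5 (adjusted p = 0.206) or M1 NS library 1 (adjusted p = 0.0735).

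Single genes were called in the remaining roles. Bub1b was the 1 checkpoint gene called (log2 fold change 1.12 with an SE of 0.25, adjusted p = 0.0046), Top2a the 1 chromosome gene, at 14.96 and 17.2 CPM in M1 KD (log2 fold change 0.92 with an SE of 0.21, adjusted p = 0.00548), and Prc1 the 1 midzone gene (log2 fold change 0.88 with an SE of 0.24, adjusted p = 0.0146). Nusap1, which bundles microtubules, was the other spindle gene called, higher by 1.13. Prc1 lost its call without M1 KD library 6 (adjusted p = 0.0774) and Nusap1 without M1 KD library 5 (adjusted p = 0.166). Mki67 overlapped between the groups, at 23.3 and 14.2 CPM in M1 KD (log2 fold change 0.31 with an SE of 0.20, adjusted p = 0.251), and was called without M1 KD library 6 (0.61, adjusted p = 0.0351). The midzone motor gene Kif23 was near the threshold (log2 fold change 0.79 with an SE of 0.30, adjusted p = 0.0536) and was called without M1 NS library 4 (adjusted p = 0.0062) or M0 NS library 4 (adjusted p = 0.0483).

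The lowest log2 fold changes of this comparison were those of Hmmr (-0.85, adjusted p = 0.118), Bub1 (-0.76, adjusted p = 0.228), Kif20a (-0.71, adjusted p = 0.204) and Kif11 (-0.68, adjusted p = 0.0905). Kif11, at 0.878 and 0.475 CPM in M1 KD, was called lower without M1 KD library 5 (log2 fold change -1.23, adjusted p = 0.04), and Hmmr, at 1.02 and 2.34 CPM, without M1 KD library 6 (-1.55, adjusted p = 0.033). Kif20b was also called lower without M1 KD library 5 (-0.82, adjusted p = 0.0453), and Smc2 without M1 NS library 2 (-0.38, adjusted p = 0.0353). Of the markers beside these values, the neutrophil sum was 213.9 to 230.2 CPM in M1 KD and 247.8 to 323.8 in M1 NS, and the macrophage sum was 15080 to 18260 and 14000 to 16240 CPM. Stem and progenitor markers summed to 8.452 to 9.362 CPM in M1 KD and 4.874 to 7.839 CPM in M1 NS, with 3 of 8 called higher by edgeR. Erythroid markers summed to 18.63 to 41.51 CPM in M1 KD and 6.336 to 17.7 CPM in M1 NS, with 0 of the 7 tested called by edgeR and 4 of them higher at an unadjusted p under 0.05. Of the 17 neutrophil markers 2 were called higher and 5 lower. Their part in the result was not tested.

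**Figure D4:**
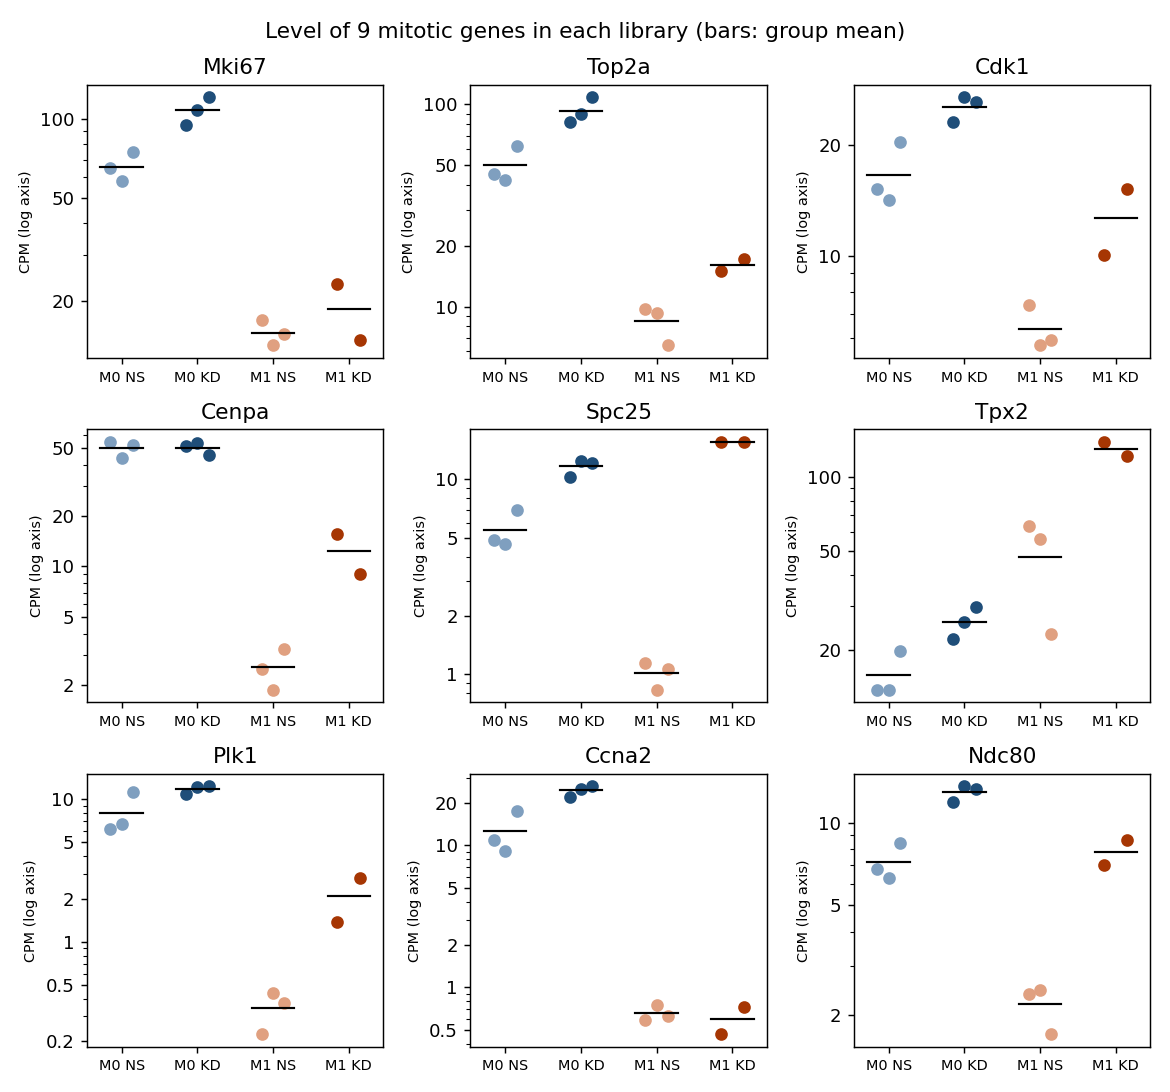
Level of 9 of the genes in each library (points, CPM on a log axis) by group, with the group mean as a bar. Spc25 and Tpx2 are highest in M1 KD, Ccna2 stays under 1 CPM in both M1 groups, and Cenpa is near 50 CPM in both M0 groups.

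M1 was also compared with M0 among cells given the gapmer against MERRICAL. The M1 KD libraries carry other numbers than those of M0 KD, so library number and state cannot be told apart in this comparison. By edgeR 38 of the 40 genes were lower in M1 KD than in M0 KD, where 31.4% of all genes were lower, and 1 was higher, where 26.9% of all genes were. The median log2 fold change was -2.91, against -0.11 for all genes. With library size as the only scaling it was -3.40 against -0.59, and the whole table's calls split into 2376 higher and 7077 lower in place of 4040 and 4715. Tpx2 was the gene called higher, at 138 and 121 CPM in M1 KD and 22.2, 25.9 and 29.7 in M0 KD (log2 fold change 2.32 with an SE of 0.32, adjusted p = 6.28e-05). Spc25 was the gene not called (log2 fold change 0.42 with an SE of 0.20, adjusted p = 0.0903), although both M1 KD libraries were above all 3 M0 KD libraries. It was called higher with RLE factors (adjusted p = 0.046), with limma-voom (0.043), with the compared groups alone (0.0133) and without M0 NS library 4 (0.05 after rounding), and its sign turned with library size alone (-0.07).

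Markers of other cells moved with this comparison too. The neutrophil and precursor markers summed to 213.9 to 230.2 CPM in M1 KD and 753.8 to 777.6 CPM in M0 KD, with 16 of 17 called lower by edgeR and 1 higher. The stem and progenitor markers summed to 8.452 to 9.362 and 20.78 to 27.08 CPM, with 4 of 8 lower, and the lymphoid markers to 1.499 to 1.784 and 4.557 to 4.807 CPM, with 2 of the 5 tested lower and 1 higher. The macrophage markers summed to 15080 to 18260 and 19570 to 21360 CPM, with 5 of 10 higher and 3 lower. Their part in the result was not tested.

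Among the lower genes Ccna2 had the largest difference, from 22.01, 25.1 and 26.05 CPM in M0 KD to 0.467 and 0.731 in M1 KD (log2 fold change -5.37 with an SE of 0.34, adjusted p = 1.43e-07). Cenpf (-5.34), Aspm (-5.17), Bub1 (-5.12) and Kif11 (-5.099) followed. The smallest were Ndc80 (-0.72, adjusted p = 0.00923), Aurka (-0.88, adjusted p = 0.0163) and Cdk1 (-1.005). Without M1 KD library 5 the adjusted p was 0.0812 for Ndc80 and 0.155 for Aurka.

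Whether the gapmer effect differed between M1 and M0 was tested as the difference between the 2 effects in the same edgeR fit. Here too library number and gapmer cannot be told apart in M1. Of the 40 genes 4 had a higher log2 fold change in M1 and 6 a lower one, where 13.1% of all genes were called higher and 14.2% lower. The share of the set called in either direction, 10 of 40, was near the 27.3% of all genes. With 1 library left out 2 to 4 were called higher and 4 to 9 lower, the 2 without M1 KD library 6 and the 9 without M0 NS library 4, and with no filter on low counts 6 were higher and 8 lower. The median difference was -0.13 on the log2 scale, and its sign turned with upper-quartile factors (0.01) and without M1 NS library 1 (0.06). It was -0.41 without M0 NS library 4.

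Of the 4 genes with the higher value in M1, 3 were kinetochore genes and 1 was Plk1. For Spc25 the log2 fold change of KD against NS was 3.93 in M1 and 1.08 in M0, a difference of 2.85 ± 0.29 (SE, adjusted p = 0.000105). For Cenpa it was 2.27 in M1 and 0.00 in M0 (difference 2.27, adjusted p = 0.000552). The kinase gene Plk1 had 2.61 and 0.56 (difference 2.05, adjusted p = 0.0102), and Ndc80 had 1.85 and 0.85 (difference 1.002, adjusted p = 0.0192). Plk1 lost this call without M1 KD library 6 (1.46, adjusted p = 0.0533), and Ndc80 without that library (adjusted p = 0.0696) or without M0 KD library 1 (adjusted p = 0.0532).

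The 6 genes with the lower value in M1 had log2 fold changes between 0.81 and 1.32 in M0 and between -0.85 and -0.22 in M1. By edgeR over all 11 libraries none of the 6 was called in M0 or in M1 taken singly. Bub1 had 14, 11 and 30 reads in M1 NS and 9 and 12 in M1 KD. Ncapg had 26, 6 and 21 reads in M1 NS and 13 and 13 in M1 KD. Hmmr differed by -2.16 (adjusted p = 0.00953), and by -2.86 without M1 KD library 6. The motors Kif11 and Kif20b differed by -1.68 (adjusted p = 0.00505) and -1.39 (adjusted p = 0.00562), and the condensin gene Smc2 by -1.03 (adjusted p = 0.00516). Bub1 differed by -1.87 (adjusted p = 0.0259), which was lost when any 1 of 5 libraries was left out, with adjusted p from 0.0511 (without M0 NS library 2) and 0.0519 (M0 NS library 1) through 0.0529 (M0 KD library 4) and 0.0795 (M1 NS library 4) to 0.14 (M1 KD library 5). Ncapg differed by -1.44 (adjusted p = 0.0492), close to the threshold. That call was lost when any 1 of 9 libraries was left out, every M0 KD and M1 KD library, M0 NS libraries 1 and 2 and M1 NS libraries 1 and 4, with adjusted p from 0.072 to 0.182. For Top2a and Cenpe, called higher in M1 KD, the differences between the states were 0.03 ± 0.28 and 0.04 ± 0.28 (SE) and did not pass the test.

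**Figure D5:**
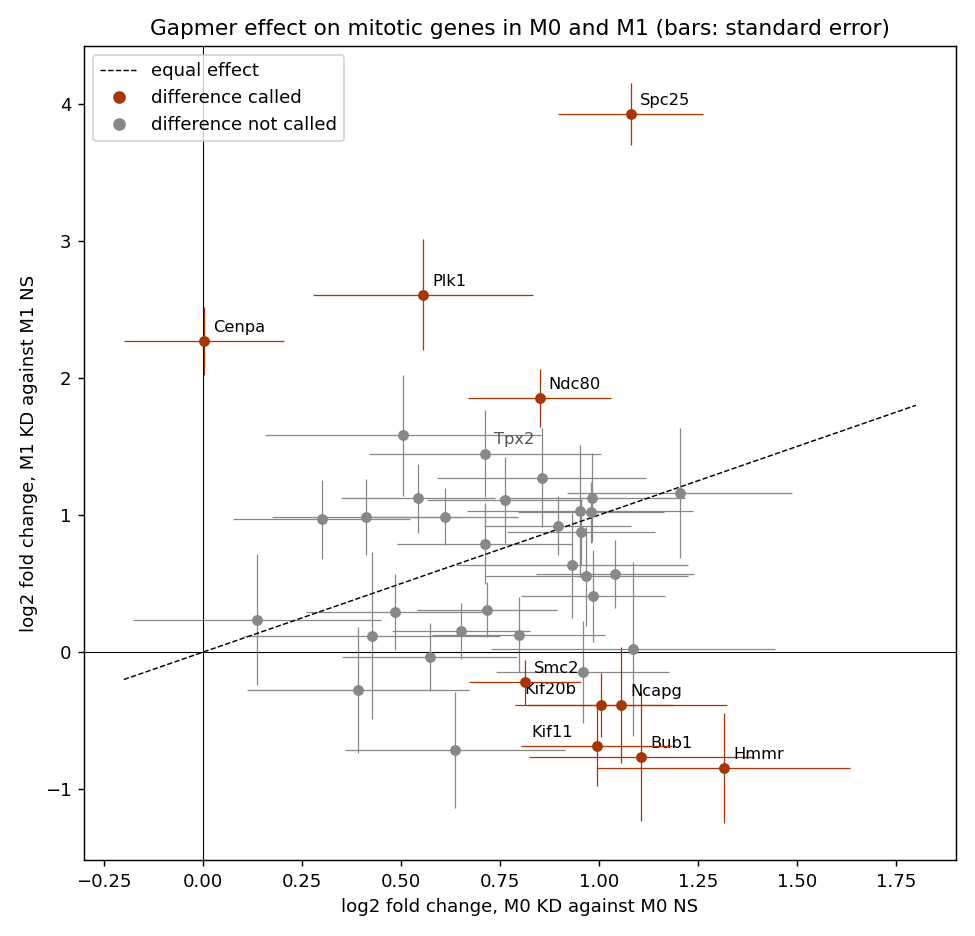
Log2 fold change of KD against NS in M0 (horizontal axis) and in M1 (vertical axis) for the 40 genes, with standard errors as bars and the line of equal effects dashed. The 10 genes whose effects differed by edgeR are in red, with Spc25, Plk1, Cenpa and Ndc80 above the line and Hmmr, Bub1, Kif11, Kif20b, Ncapg and Smc2 below it, and Tpx2 is named for reference.

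How reads on bases shared by overlapping genes were counted is not known, since the sources used here do not give the strand setting of the counting. By GENCODE M21 on GRCm38, 22 of the 40 genes overlap another gene and 10 share exon bases with one. Kif20a shares 1271 exon bases with Cdc23 on the opposite strand, Ncapg 944 with Lcorl, Prc1 911 with Rccd1 and Kif4 832 with Pdzd11. Ccna2 shares 510 and Ncapd2 472, and Nusap1, Plk1, Top2a and Cdc20 share fewer. The values of these 10 genes are uncertain to that extent. Spc25 (chr2:69193895-69206194, minus strand) and Tpx2 (chr2:152847964-152895321, plus strand) share none. Nostrin, a gene 4564 bases from Spc25 picked for its position, was at 1.56 CPM in M1 NS and 5.01 CPM in M1 KD (log2 fold change 1.69, adjusted p = 0.00101). Bcl2l1, the neighbour before Tpx2, was lower in M1 KD (log2 fold change -1.13, adjusted p = 0.000546).

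Other genes of division were read from lists of further mitotic genes, S phase genes and cell cycle regulators. Of 87 further mitotic genes 61 were lower and 9 higher in M1 NS than in M0 NS by edgeR, with a median log2 fold change of -1.61. Cdc25b, a phosphatase that activates Cdk1, was lower at -4.50, and the condensin gene Ncaph at -3.54. Plk4, the kinase of centriole duplication, and the kinetochore gene Zwint were higher at 1.42 and 1.34. Of 40 S phase genes 24 were lower and 5 higher, with a median of -0.85. Over all genes tested 28.6% were lower and 26.9% higher. In M1 KD against M1 NS, 27 of the 87 were higher and 8 lower, among them Wee1, the kinase that holds Cdk1 inactive (2.36), Cdc25b (2.16) and the Cenpa chaperone gene Hjurp (-1.63); 8 of the 40 S phase genes were higher and 2 lower. Over all genes 17.6% were higher and 19.2% lower, so the S phase count of higher genes was near the share over all genes.

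Of the 35 regulators 17 were lower and 12 higher in M1 NS than in M0 NS, where 28.6% of all genes were lower and 26.9% higher. Foxm1, a transcription factor of late cell cycle genes, was lower at a log2 fold change of -2.60 and Mybl2, another, at -1.47. The cyclin D2 gene Ccnd2 was higher, from 7.47 to 352 CPM (log2 fold change 5.56, adjusted p = 2.21e-06), as was Cdkn1a, the inhibitor p21, from 287 to 1028 CPM (1.84, adjusted p = 6e-06). Cdkn2c, an inhibitor of the cyclin D kinases, was lower at -3.37. In M1 KD against M1 NS, 12 of the 35 were higher and 5 lower, where 17.6% of all genes were higher and 19.2% lower. Foxm1 and Mybl2 were higher at 1.25 (adjusted p = 0.0185) and 1.41 (adjusted p = 0.0114), and Ccnd2 was lower at -1.57 (adjusted p = 0.0263). Not called by edgeR were E2f1 at 0.38 (adjusted p = 0.103), E2f7 at 0.02 (adjusted p = 0.981) and E2f8 at -0.27 (adjusted p = 0.558). In M0 KD against M0 NS none of the 87, the 40 or the 35 was called, and 78, 38 and 26 of them had log2 fold changes above 0, as did 50.4% of all genes.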

How the data were processed

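RNA from bone marrow derived macrophages was sequenced as 11 libraries in 4 groups. The submitters' processing notes list the tools STAR 2.5.2b, Trimmomatic 0.36 and Subread 1.5.2 with featureCounts, and the build GRCm38. The deposited values used here are raw counts of reads, 1 per gene in each library. Its 1 blank-named entry (at most 0.000305% of a library) was left out. Genes kept by filterByExpr (minimum count 10, minimum total 15) were tested in edgeR 4.0.16 (R 4.3.3) with TMM factors and 1 robust quasi-likelihood fit over all libraries. The threshold was 0.05 on p-values adjusted by Benjamini-Hochberg over 15024 genes. The SE of a log2 fold change was derived from that test, as its absolute value divided by the square root of the F statistic. Alternatives were other scalings, DESeq2 1.42.0, limma-voom (limma 3.58.1), other filters, fewer libraries and a replicate block. The members and lists were chosen with earlier results of these data known. Every member may be named; values per library are given for a fixed subset from each role and for the members with the smallest adjusted p. The neighbours of Spc25 and Tpx2 were chosen after their values were seen. Nothing states that replicates are separate cultures or animals. The p-values set the difference between groups against the scatter of these libraries, which may be only a technical spread. Gene positions are from GENCODE M21.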

Additional observations from a re-analysis of the deposited data

Results flagged for a closer look

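For 10 of the 40 genes the effect of the gapmer against MERRICAL differed between M1 and M0 cells by edgeR's test of the difference itself, given here as the M1 effect minus the M0 effect on the log2 scale. The differences above 0 were Spc25 at 2.85 (adjusted p = 0.000105), Cenpa at 2.27 (adjusted p = 0.000552), Plk1 at 2.05 (adjusted p = 0.0102) and Ndc80 at 1.002 (adjusted p = 0.0192). The differences below 0 were Hmmr at -2.16 (adjusted p = 0.00953), Bub1 at -1.87 (adjusted p = 0.0259), Kif11 at -1.68 (adjusted p = 0.00505), Ncapg at -1.44 (adjusted p = 0.0492), Kif20b at -1.39 (adjusted p = 0.00562) and Smc2 at -1.03 (adjusted p = 0.00516). Over all genes 27.3% differed in either direction, so the share of the set was near that over all genes. Bub1 and Ncapg were not called under limma-voom, and Ncapg was not called with RLE or upper-quartile factors either. Library number and gapmer cannot be told apart in M1, and the differences share this limit. Spc25, Cenpa, Kif11, Kif20b, Hmmr and Smc2 were called under every alternative run for this difference.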

How the results depend on the processing

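In M1 NS against M0 NS the set's median log2 fold change was -3.40 with library size as the only scaling and -3.15 to -2.78 with 1 library left out, and 39 to 40 of the 40 genes stayed called. In M0 KD against M0 NS, DESeq2 called 19 of the set (175 of all genes), edgeR with no filter on low counts 25 (385), and the 6 M0 libraries alone 27 (1103). Chosen after seeing the data, those 6 without M0 NS library 4 gave 37 (1726) and without M0 KD library 4 gave 12 (403). With all groups fitted, leaving out 1 library gave 0 of the set and 0 to 1 of all genes. In M1 KD against M1 NS, limma-voom and the compared groups alone each called 10 of the set, the latter 3104 of all genes, and leaving out 1 library gave 14 to 18 of the set (13 to 18 higher and 0 to 2 lower) and 3658 to 5796 of all genes. In M1 KD against M0 KD library size alone gave a median of -3.40. The median of the difference of effects was 0.0115 with upper-quartile factors and -0.405 to 0.0551 with 1 library left out, when 8 to 13 of the set were called. In these comparisons the cause was not tested. Where 1 M1 KD library is left, it is assumed to vary like the other groups.

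Some small log2 fold changes turned sign. In M0, Cenpa was -0.0076 with RLE factors, -0.0099 with DESeq2, -0.0134 with no filter, -0.0725, -0.0081 and -0.0356 with the M0 libraries alone without M0 NS library 2, M0 KD library 1 or M0 KD library 2, and -0.0843 to 0.0708 with 1 library left out. Cdc20 was -0.0093 and -0.0559 with the M0 libraries alone without M0 NS library 1 or 2, and -0.0647 to 0.554 with 1 library left out. In M1 KD against M1 NS, with 1 library left out, Aspm was -0.416 to 0.374, Smc4 -0.291 to 0.307, Ccna2 -0.481 to 0.160, Ccnb2 -0.592 to 0.132, Cdc20 -0.0275 to 0.643, Kif15 -0.119 to 0.345, Kif18b -0.262 to 0.514, Mad2l1 -0.0855 to 0.342 and Mki67 -0.106 to 0.615. Aspm was -0.0229 with library size alone. Smc4 was 0.0027 with RLE factors, 0.117 with upper-quartile factors, 0.0248 with limma-voom and 0.0033 with the compared groups alone, and Ccna2 was 0.0029 with upper-quartile factors. Spc25 in M1 KD against M0 KD was -0.0676 with library size alone.

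The labels do not say whether the numbers 1, 2 and 4 pair libraries, and the deviations of same-numbered libraries correlated at -0.115 to 0.135 over all groups. Between M0 NS and M0 KD they correlated at 0.135, 0.022 and 0.124, and those of other-numbered libraries at -0.133 to 0.032. The libraries were treated as unpaired. With the number as a replicate block over 9 libraries, 40 of the set were called in M1 NS against M0 NS and 0 in M0 KD against M0 NS, as without it, with 8048 of all genes called in the first in place of 8338. No paired analysis was possible for the M1 KD group because its numbers, 5 and 6, occur in no other group. A difference between those libraries and the ones numbered 1, 2 and 4 cannot be told apart from the gapmer effect in M1. The difference of gapmer effects between M1 and M0 shares this limit. In M1 KD against M0 KD, library number and state cannot be told apart. Depth limits the M1 values, since 10 of the genes had no more than 10 reads in some M1 NS library.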
